A study of Rattus norvegicus with 2 samples.

Results

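Transcripts of 10 genes of eicosanoid signalling were compared between 2 rat tissue libraries, each hybridised to 1 one-colour Agilent array. The genes were chosen by name: the prostacyclin pair Ptgis and Ptgir, the thromboxane pair Tbxas1 and Tbxa2r, the prostaglandin D synthases Ptgds and Hpgds, the prostaglandin F receptor Ptgfr, the phospholipase Pla2g4a, and the leukotriene genes Alox5 and Alox5ap. They are 10 of the 15159 genes that could be named on the array by accession, and each was read by 1 probe with 2 spots per array. The control library came from intracranial arterial wall of untreated rats (1 array, 1 sample) and the aneurysm library from an intracranial aneurysm taken 3 weeks after its induction (1 array, 1 sample). The strain, sex and age of the rats, the way of induction and the number of animals behind each RNA were not given in the sources used here. Since each group is a single array, differences have no replicate check, and the values describe these 2 libraries without any p-value.

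Eicosanoids are local lipid signals made from arachidonic acid, which cytosolic phospholipase A2 cuts from membrane lipids. Cyclooxygenases turn it into prostaglandin H2, from which further enzymes make prostacyclin, thromboxane, and the prostaglandins D, E and F, while 5-lipoxygenase opens the separate branch to leukotrienes. In an artery, prostacyclin relaxes smooth muscle and restrains platelets, thromboxane constricts the vessel and activates platelets, and leukotrienes draw in and activate leukocytes.

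Levels are given as log2 of the processed spot signal relative to the 75th percentile of the same array, which was 621 for the control array and 801 for the aneurysm array. A difference is the aneurysm level minus the control level, and ± gives the spot error, which pools the SD of repeat spots of like signal on an array. It holds no variation between animals. All 10 genes were well above background at every spot on both arrays, none was an outlier or saturated, and so each has a measured difference and not a bound. The scanner software's own error estimate gave differences of this kind an error of 0.20 to 0.24, larger than the spot error of every gene except Pla2g4a. Genes were also ranked by signal into 5 equal groups. For genes with 2 probes in the same group, the median gap between the probes' differences was 0.25 in group 2 from the bottom, which holds Hpgds, Tbxa2r, Pla2g4a, Alox5 and Alox5ap, and its 90th percentile was 0.68. These values were 0.20 and 0.59 in group 3 (Ptgir, Tbxas1 and Ptgfr), 0.12 and 0.36 in group 4 (Ptgis), and 0.09 and 0.26 in group 5, the brightest (Ptgds). Since each gene here rests on 1 probe, such a gap is the nearest available guide to how far another probe could have differed.

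Scaled to the 75th percentile, Pla2g4a, Tbxas1, Ptgis, Alox5ap and Hpgds had both aneurysm spots above both control spots, and Ptgds and Alox5 both below, where Hpgds turned to -0.03 with normexp, Ptgds to 0.06 with quantile normalization and Alox5 to 0.17 with spike-in scaling. Pla2g4a was 1.69-fold higher, Tbxas1 1.46-fold, Ptgis 1.29-fold and Alox5ap 1.28-fold, and Ptgds was 1.43-fold higher in the control library. The receptors Ptgir, Tbxa2r and Ptgfr had overlapping spots. Only Pla2g4a, Tbxas1 and Ptgds differed by more than 1.96 times the software's error, and the share of all genes past that margin was not computed. None of the 10 genes reached a 2-fold difference in either direction, whereas of all 11902 genes with a value 0.882% were 2-fold or more higher and 3.91% 2-fold or more lower. At 1.5-fold, 1 gene (Pla2g4a, higher) was past the threshold, against 4.25% of all genes higher and 8.43% lower by that much. Either way the share was 12.7% of all genes and 13.1% of those in the signal group of Pla2g4a, so 1 of 10 is not above the background. The median difference of the 10 genes was 0.16, and that of all genes 0.001. Spike-in scaling moved the median of all genes to 0.30, so values under it, here and below, should be read against that shift. Spots of the libraries did not overlap for 7 of the 10 genes, and for 71.1% of the 8148 genes with 2 spots on each array, so the share is close to that of the whole array. Both aneurysm spots lay above both control spots for 5 of the 10, against 35.1% of those genes, and 6 of the 10 were higher by any amount, against 50.2% of all genes.

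**Figure D1:**
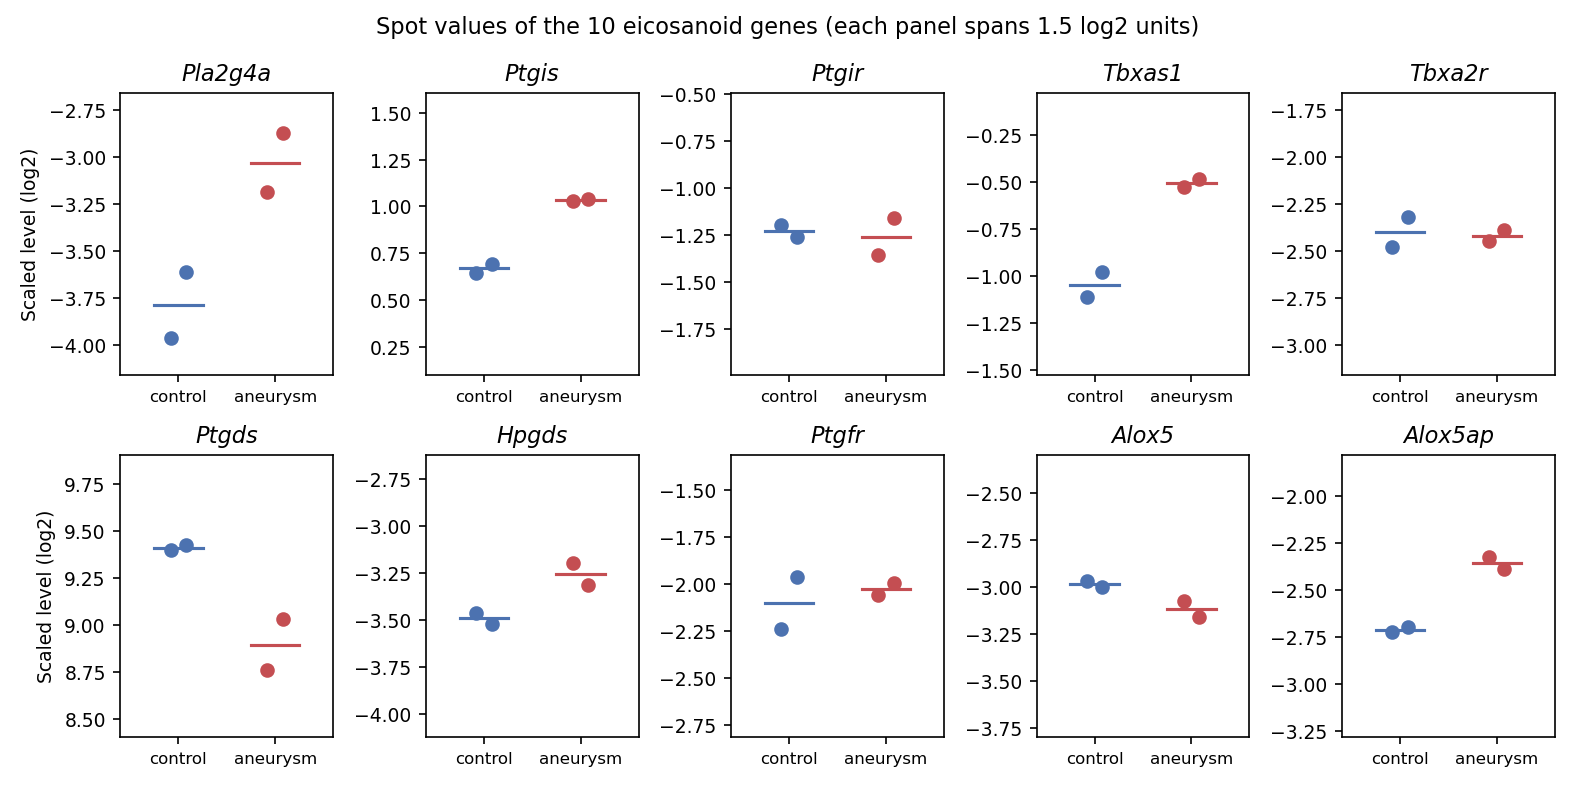
Scaled level (log2 relative to the array's 75th percentile) of both spots of each gene on the control and the aneurysm array, with the mean as a bar. Every panel spans 1.5 log2 units, so panels compare differences and not levels; Pla2g4a, Tbxas1, Ptgis, Alox5ap and Hpgds have both aneurysm spots on top, and Ptgds and Alox5 both control spots; other scalings turn Hpgds (-0.03 with normexp), Ptgds (0.06 with quantile normalization) and Alox5 (0.17 with spike-in scaling).

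**Figure D2:**
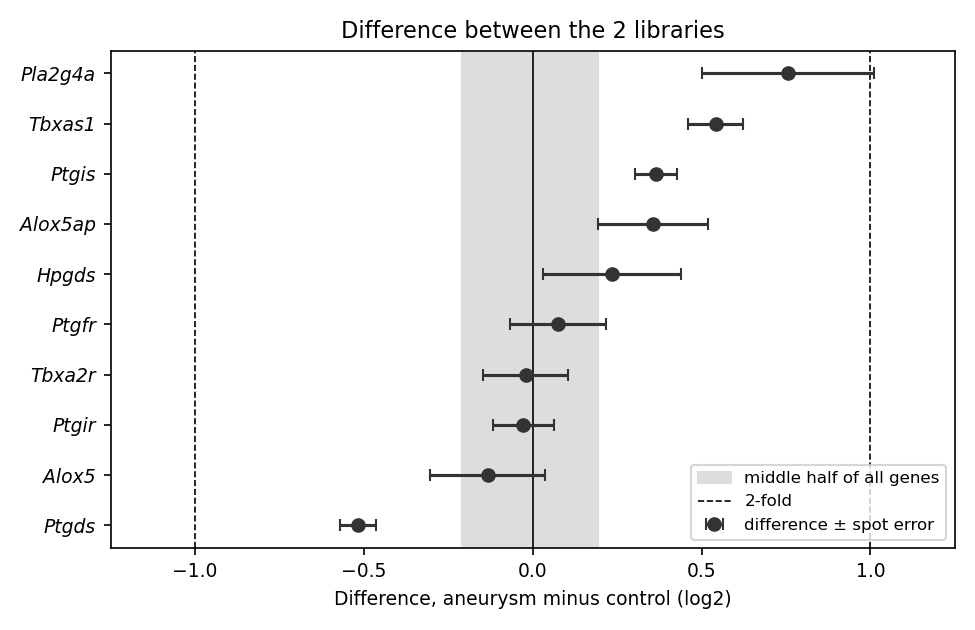
Difference (log2, aneurysm minus control) of each gene with its spot error, over a grey band that holds the middle 50% of all genes (-0.21 to 0.19). Pla2g4a, Tbxas1, Ptgis, Alox5ap and Hpgds lie to the right of the band, Ptgds to its left, and the other genes within it, and no gene reaches the dashed lines at 2-fold; with spike-in scaling all genes but Ptgds shift to the right of 0 and Pla2g4a passes 2-fold.

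The promoter windows of the genes with the highest (Pla2g4a, Tbxas1) and the lowest (Ptgds) difference are printed here so that the start regions of genes that differed in opposite directions can be read side by side. They are RefSeq sequences of the GRCr8 assembly, from 250 bases before to 50 bases after the annotated start, and 7 of the 10 genes had one; Ptgis, Hpgds and Alox5ap did not. The Pla2g4a window is chr13:64572303-64572602 (minus strand), that of Tbxas1 chr4:68631635-68631934 (plus strand) and that of Ptgds chr3:28682929-28683228 (minus strand). Capitals mark matches, on either strand, to any of 9 motifs.
Pla2g4a: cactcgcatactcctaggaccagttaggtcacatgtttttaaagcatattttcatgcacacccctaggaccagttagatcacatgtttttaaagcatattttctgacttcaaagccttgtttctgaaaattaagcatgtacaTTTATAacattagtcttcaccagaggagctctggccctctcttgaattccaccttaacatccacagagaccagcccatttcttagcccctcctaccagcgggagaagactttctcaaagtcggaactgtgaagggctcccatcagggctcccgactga
Tbxas1: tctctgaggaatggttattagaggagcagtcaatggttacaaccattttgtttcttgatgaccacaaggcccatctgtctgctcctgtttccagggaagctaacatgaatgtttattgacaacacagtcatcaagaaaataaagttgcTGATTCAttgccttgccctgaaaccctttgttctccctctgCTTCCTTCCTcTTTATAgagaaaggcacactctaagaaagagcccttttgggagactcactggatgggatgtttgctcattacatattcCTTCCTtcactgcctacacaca
Ptgds: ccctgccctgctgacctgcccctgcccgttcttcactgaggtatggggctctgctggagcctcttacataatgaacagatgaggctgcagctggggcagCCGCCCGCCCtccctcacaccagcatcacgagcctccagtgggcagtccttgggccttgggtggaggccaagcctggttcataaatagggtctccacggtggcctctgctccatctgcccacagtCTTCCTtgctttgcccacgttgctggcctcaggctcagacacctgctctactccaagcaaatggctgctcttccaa
The motifs were the TATA box TATAAA, the CCAAT box CCAAT, the GC box GGGCGG, the cyclic AMP response element TGACGTCA, the AP-1 site TGANTCA, the interferon-gamma activated site TTCNNNGAA, the ETS core AGGAAG, the NF-kappaB site and the CArG box. Matches of different motifs did not overlap in these 3 windows, although copies of 1 motif did. The Pla2g4a window holds a TATA match starting 108 bases before the start and no other. The Tbxas1 window holds a TATA match (50 bases before), an AP-1 match (102 bases before) and 3 ETS matches. Of these ETS matches 2 overlap (61 and 57 bases before) and 1 lies after the start. With overlapping ones counted, 1.77% of all 33469 windows hold 3 or more ETS matches. The Ptgds window holds 2 overlapping GC boxes and 1 ETS match. Of all windows, 14.2% hold the TATA motif, 7.33% the AP-1 motif, 33.1% the GC box and 34.5% the ETS core. Of the remaining motifs, 37.5% of windows hold CCAAT, 1.83% the cyclic AMP element, 8.87% the interferon-gamma site, 7.51% the NF-kappaB site and 1.64% the CArG box, and among the 7 windows only that of Alox5 held one of these, an NF-kappaB match. GC content was 44.7% for Pla2g4a, 43% for Tbxas1 and 60.7% for Ptgds, against a median of 51.7% over all windows. A match is a run of letters in the window and not a measured binding site.

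Pla2g4a encodes cytosolic phospholipase A2 alpha, which releases arachidonic acid and so feeds every branch described here. Its control spots had signals of 39.8 and 50.8 and its aneurysm spots 88.0 and 109. Scaled, these were -3.96 and -3.61 against -3.19 and -2.87, so both aneurysm spots lay above both control spots, at signals near the lower end of the range. The difference was 0.76 ± 0.26, and single pairs of spots gave 0.42 to 1.09. Among all genes 2.03% had a higher difference, and in its signal group 7.02% lay at least as far from 0. The difference exceeded the 90th percentile of the gap between probes at this signal. With normexp background correction it was 0.22, and with spike-in scaling 1.06, past 2-fold, as were 2.6% of all genes under that scaling.

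Prostacyclin is made by prostacyclin synthase (Ptgis) and acts through the IP receptor (Ptgir), a receptor that raises cyclic AMP in smooth muscle and platelets. The control spots of Ptgis had signals of 971 and 1006 and its aneurysm spots 1637 and 1650, or scaled levels of 0.65 and 0.70 against 1.03 and 1.04. Spots of 1 array lay close together, and those of the 2 arrays did not overlap. The difference was 0.37 ± 0.06, and 11.3% of all genes had a higher one. It lay within 1.96 times the software's error of 0.20, and near the 90th percentile of the gap between probes at this signal (0.36). Ptgir had control levels of -1.20 and -1.26 and aneurysm levels of -1.36 and -1.16, so its spots overlapped. Its difference of -0.03 ± 0.09 lay within the spot error and turned to 0.0034 with median centring and 0.28 with spike-in scaling. The difference of the synthase exceeded that of its receptor by 0.39 ± 0.11, a gap that no scaling by 1 constant per array can change and that was 0.40 with normexp and 0.37 with quantile normalization. As for every gap below, this ± holds spot error only. The software's errors of these differences, 0.20 for Ptgis and 0.21 for Ptgir, are larger than their spot errors. No margin from the software's error or from the gap between probes was computed for such gaps, so they may be smaller than those margins.

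Markers of vessel wall cells, which carry much of this pair in arteries, were also somewhat higher in the aneurysm library. Of 9 contractile smooth muscle genes 7 were higher (median 0.18, summed linear level 127.6 in control wall and 150.4 in the aneurysm), led in signal by Tagln (0.18), Actg2 (0.52) and Myh11 (0.08). Of 8 endothelial genes measured 6 were higher (median 0.18, but -0.02 with normexp, summed level 16.3 and 18.0), and of 7 fibroblast genes 6 (median 0.55, summed level 161.6 and 177.9). All measured markers of these lists were well above background on both arrays. So were 74.7% of all spots other than controls on the control array and 76.4% on the aneurysm array. Detection therefore does not single out these cell types. Centred on the smooth muscle median, a choice made after seeing the data, Ptgis was at 0.18 and Ptgir at -0.21. In bulk tissue a change in the share of a cell type and a change in RNA per cell cannot be told apart, and the part of the wall cell lists in these values was not tested.

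Thromboxane synthase (Tbxas1) makes thromboxane A2, which macrophages and platelets release, and the TP receptor (Tbxa2r) carries its constrictor signal. The control spots of Tbxas1 had signals of 287 and 314 and its aneurysm spots 556 and 573, with scaled levels of -1.11 and -0.98 against -0.53 and -0.48. The libraries were apart by more than 0.45 at every pair of spots. The difference was 0.54 ± 0.08, and 5.05% of all genes and 3.07% of those of like signal had a higher one. It stayed just under the 90th percentile of the gap between probes at this signal. Tbxa2r had control levels of -2.48 and -2.32 and aneurysm levels of -2.45 and -2.39, with the aneurysm spots between the control spots. Its difference of -0.02 ± 0.13 turned to 0.01 with quantile normalization, 0.01 with median centring and 0.28 with spike-in scaling. Here too the synthase exceeded the receptor, by 0.56 ± 0.15 (0.51 with normexp, 0.50 with quantile normalization). Tbxas1 exceeded Ptgis by 0.18 ± 0.10, with a 95% margin from spot error of 0.20, and by 0.06 with normexp, so a gap of 0 is within the margin.

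Macrophage markers were higher beside Tbxas1, and platelet markers were not. Of 11 macrophage genes 9 were higher (median 0.22, summed level 57.7 in control wall and 64.5 in the aneurysm), with C1qb at 0.22, Tyrobp at -0.01 and C1qa at 0.20. Of 6 platelet genes with a value 5 were lower (median -0.28, but 0.03 with spike-in scaling), the higher one, Itgb3, being a bound, with summed levels of 4.25 and 3.47, and Gp1ba and Ppbp were not well above background in either library. The platelet chemokine gene Pf4 was at -0.27 ± 0.04 and Gp1bb at -0.29 ± 0.06. The part of macrophages or platelets in the Tbxas1 value was not tested.

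Prostaglandin D2 is made by 2 unrelated enzymes, the lipocalin-type synthase Ptgds of leptomeninges, choroid plexus and oligodendrocytes, and the haematopoietic synthase Hpgds of mast cells, macrophages and some lymphocytes. They differed in opposite directions at the 75th percentile scaling, Hpgds turning to -0.03 with normexp and Ptgds to 0.06 with quantile normalization. The control spots of Ptgds had signals of 419845 and 426484 and its aneurysm spots 347514 and 419250, with scaled levels of 9.40 and 9.42 against 8.76 and 9.03. Both aneurysm spots lay below both control spots, although they were 0.27 apart from each other, which the pooled spot error of 0.05 understates. The difference was -0.52, and single pairs of spots gave -0.66 to -0.37. Of all genes 9.96% had a lower difference, and in the brightest signal group 2.77%. The median pixel of these spots stood at 47.3% to 56.9% of the scanner's saturation value. With loess centring the difference was -0.28 and with spike-in scaling -0.21. Quantile normalization ties the brightest ranks of both arrays together, which leaves little room for a difference at this signal.

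Hpgds had control levels of -3.46 and -3.52 and aneurysm levels of -3.19 and -3.31. Its spots did not overlap, and the difference of 0.24 ± 0.21 was close to the software's error of 0.23 and within 1.96 spot errors. The difference of Hpgds exceeded that of Ptgds by 0.75 ± 0.21, by 0.47 with normexp and by 0.29 with quantile normalization.

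Of the lists for cells that make Ptgds, that of oligodendrocytes was clearly lower in the aneurysm library, and the others were mixed. Of 11 oligodendrocyte genes 10 were lower and 7 at least 2-fold lower (median -1.13, summed level 169.2 in control wall and 86.7 in the aneurysm), with Mbp at -0.96 and Mag at -1.13. Cldn11, the claudin of myelin and arachnoid barrier, was the exception at 0.04, singled out after its value was seen. Of 8 leptomeningeal genes 6 were lower, with a median of -0.05 (0.26 with spike-in scaling) and summed levels of 447.1 and 398.8. Igf2 was at -0.32 and Slc22a6 at -0.30, while Slc13a3 at -0.01 and Crabp2 at -0.00024 counted as lower with almost no difference. Slc47a1 was higher, at 0.80. Of 8 choroid plexus genes 5 were lower (median -0.17, but 0.14 with spike-in scaling), with summed levels of 29.4 and 15.0. Most of that drop was Ttr (21.2 and 7.93), which liver also makes and whose list is described with the Cyp4f genes, and without Ttr the sums were 8.24 and 7.11. Besides Ttr, the lower ones were Otx2 at -1.08 ± 0.55, Aqp1 at -0.51 ± 0.03, Kcne2 at -0.31 ± 0.13 and Kcnj13 at -0.02. The higher ones were Kl at 0.09, Folr1 at 0.33 and Sostdc1 at 0.61. All measured oligodendrocyte and leptomeningeal markers were well above background on both arrays. On the Hpgds side, 5 of 7 mast cell genes with a value were lower (median -0.57, 3 of the 7 being bounds, summed level 0.73 and 0.62), and Cpa3, Ms4a2 and Fcer1a were not well above background in either library. Of 7 lymphocyte genes with a value, 1 of them a bound, 5 were higher (median 0.22, and 0.05 with normexp). The part of these cell types in the Ptgds and Hpgds values was not tested.

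Ptgfr, the FP receptor for prostaglandin F2 alpha, a constrictor signal, had control levels of -2.24 and -1.96 and aneurysm levels of -2.06 and -2.00. The aneurysm spots lay between the control spots, and the difference of 0.08 ± 0.14 was within the spot error. It was -0.03 with normexp, -0.11 when centred on the smooth muscle list and 0.38 with spike-in scaling. The 3 receptors were close to each other, since Ptgir minus Tbxa2r was -0.01 ± 0.16 and Ptgfr minus Ptgir 0.10 ± 0.17. The 95% margins from spot error around these gaps were 0.30 and 0.33, so a smaller unequal change would not have been seen.

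The leukotriene branch starts with 5-lipoxygenase (Alox5) and its membrane partner, the 5-lipoxygenase-activating protein (Alox5ap), which hands it arachidonic acid. Both are typical of myeloid cells. The control spots of Alox5ap had signals of 93.8 and 95.7 and its aneurysm spots 160 and 153, with scaled levels of -2.73 and -2.70 against -2.32 and -2.39. Its spots were tight and did not overlap, and the difference was 0.36 ± 0.16 (0.14 with normexp). That difference lay within 1.96 times the software's error of 0.21, and below the 90th percentile of the gap between probes at this signal (0.68). Alox5 had control levels of -2.97 and -3.00 and aneurysm levels of -3.07 and -3.16. Both aneurysm spots lay below both control spots, yet the difference of -0.13 ± 0.17 was within the spot error and was 0.17 with spike-in scaling. Alox5ap exceeded Alox5 by 0.49 ± 0.24, just beyond its 95% margin from spot error of 0.46, and by 0.36 with normexp and 0.45 with quantile normalization, both inside that margin.

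Beside this pair, the macrophage list was higher (above), and 5 of 6 neutrophil genes with a value were lower (median -0.34, -0.04 with spike-in scaling), 1 of them a bound (Cxcr2), with summed levels of 0.57 and 0.41. The neutrophil genes S100a9 and S100a8 were at -0.36 ± 0.14 and -0.32 ± 0.17, Camp at -0.33 ± 0.17, Lcn2 at -2.03 ± 0.46 and Csf3r, the higher one, at 0.42 ± 0.76, and Elane, Ltf and Ngp were not well above background in either library. The part of macrophages or neutrophils in the Alox5 and Alox5ap values was not tested.

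**Figure D3:**
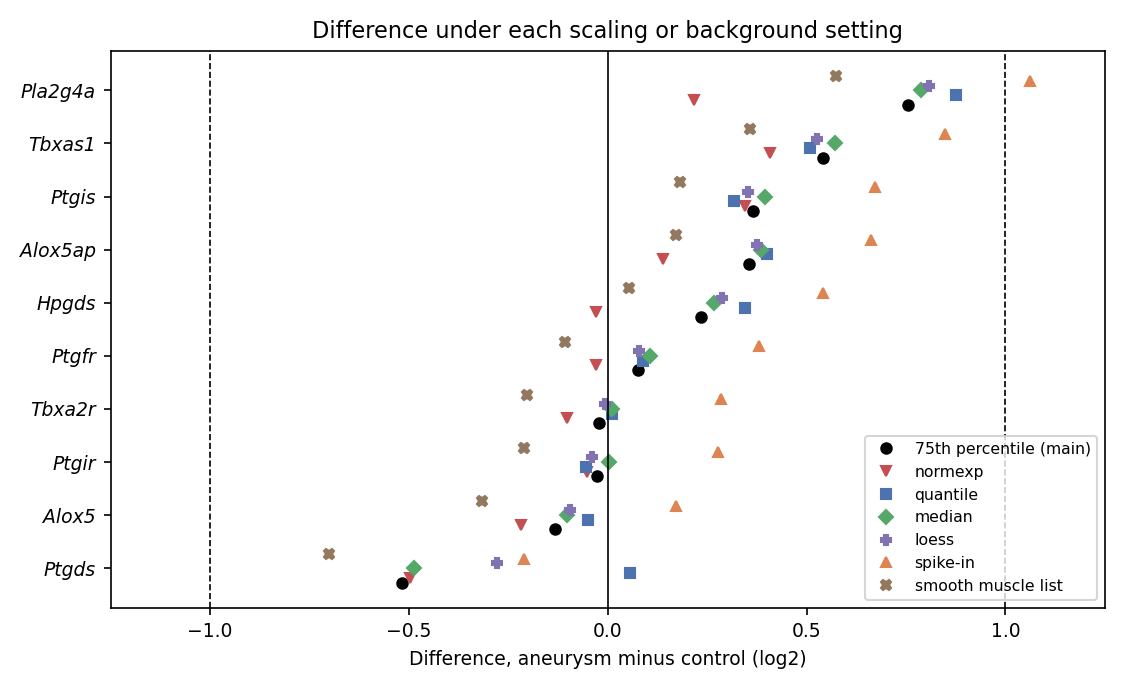
Difference (log2, aneurysm minus control) of each gene under the main scaling and 6 other scaling or background settings, with dashed lines at 2-fold. Pla2g4a, Tbxas1, Ptgis and Alox5ap stay right of 0 under every setting plotted, while Ptgds moves to 0.06 with quantile normalization and Hpgds, Ptgfr, Tbxa2r, Ptgir and Alox5 cross 0 under at least 1 setting.

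Around these genes, 68 other genes of eicosanoid metabolism in 7 lists had a probe, and 59 had a difference or a bound. Of these, 34 were higher and 25 lower, 3 at least 2-fold higher and 3 at least 2-fold lower, and their median was 0.03 against 0.001 for all genes. Of all genes 50.2% were higher, 0.882% 2-fold or more higher and 3.91% 2-fold or more lower, so 3 of 59 lower is near the share of the whole array. Of the 59 values 7 are bounds, among them 3 of the 6 past 2-fold. In the cyclooxygenase and prostaglandin E2 list 6 of 8 were higher (median 0.28, with 2 of the 8 bounds). This median was 0.11 from probes detected on both arrays, 0.15 with the mean over probes, 0.09 when centred on the smooth muscle list and 0.58 with spike-in scaling. Its member past 2-fold was Ptger2, the EP2 receptor, well above background in the aneurysm library only. It was 5.20-fold higher there when set against its own control signal, which was not well above background. That value of 2.38 ± 0.73, counted among the bounds, is not a lower limit, and it was 0.41 with normexp. The cyclooxygenases supply all prostanoid synthases named above, and are given here for that reason and not by the naming rule. The brighter Ptgs1 probe was at 0.62 ± 0.04 but its dimmer probe at -0.43 ± 0.30, so the probes disagree, and Ptgs2 was at 0.01 ± 0.21 (-0.17 with normexp).

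Of 13 phospholipase A2 genes with a value, 6 were higher and 7 lower (median -0.06, and 0.25 with spike-in scaling, against 0.30 for all genes). The secreted phospholipase Pla2g2f, detected in the aneurysm library only, was at 1.16 ± 0.76 against its own dim control signal, so this bound is not a strict limit. Pla2g2f had no value with normexp. Pla2g12b, detected in the control only, had a bound of -1.22 ± 0.84 (-0.46 with normexp, -0.95 with quantile normalization). Both bounds rest on dim spots. The transport and degradation list had 7 of 10 genes higher (median 0.13, but -0.02 with normexp), with the prostaglandin transporter Slco2a1 at 0.69 ± 0.20 (0.24 with normexp) and Hpgd, which inactivates prostaglandins, at -0.39 ± 0.39. In the list of other prostaglandin D and F genes, 2 of 5 were higher (median -0.07, and 0.24 with spike-in scaling, against 0.30 for all genes): Ptgfrn, a binding partner of the FP receptor, at 0.63 ± 0.10 and the aldose reductase gene Akr1b1, which can make prostaglandin F2 alpha, at 0.63 ± 0.04. The prostaglandin D receptors, named as partners of Ptgds and Hpgds after their values were seen, were at -0.07 ± 0.13 (Ptgdr, with its 2 dimmer probes at -0.29 and 0.23) and -0.41 ± 0.30 (Ptgdr2).

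The other leukotriene genes were split, 5 of 10 with a value being higher (median 0.04, but -0.04 with normexp). Among those measured on both arrays the dipeptidase gene Dpep1, whose product trims leukotriene D4, was farthest from 0 at -0.88 ± 0.15 (-0.79 with normexp). Ggt5, which trims leukotriene C4, came next at 0.49 ± 0.37, but was at 0.07 with normexp, nearer to 0 than Mgst3 (-0.42) and Gpr17 (-0.36) under that setting. The leukotriene B4 receptor Ltb4r had a bound of 0.50 ± 0.76, also against its own dim control signal and so not a strict limit. The enzymes next to Alox5, also named after their values were seen, were at 0.26 ± 0.05 (Lta4h; 0.15 with normexp, 0.56 with spike-in scaling) and 0.09 ± 0.13 (Ltc4s; -0.04 with normexp, -0.09 when centred on the smooth muscle list). The cysteinyl leukotriene receptors Cysltr1 and Cysltr2 and the receptor Ltb4r2 were not well above background in either library. In the list of other lipoxygenases and their receptors 5 of 6 were higher (median 0.37, but -0.04 with normexp). Of its enzymes, Alox12b (0.0043 ± 0.26) and Aloxe3 (0.29 ± 0.26) were measured on both arrays, while Alox12 and Alox15 have bounds. The others are receptors, Gpr31 at 0.77 ± 0.75 and Cmklr1, a receptor for chemerin, 2.11-fold higher (1.08 ± 0.27, and 0.51 with normexp). In the epoxygenase list 4 of 7 were lower (median -0.34), led by the omega-hydroxylases Cyp4f1 (-1.79 ± 0.10) and Cyp4f4 (-1.13 ± 0.07), the latter at -0.82 with spike-in scaling. Liver also expresses these Cyp4f genes, and all 10 hepatocyte markers with a value, 1 of them a bound, were 14.2-fold to 50.2-fold lower in the aneurysm library (median -4.65, summed level 26.4 in control wall and 0.77 in the aneurysm). Tat and Cps1, the other hepatocyte markers on the list, were not well above background in either library. The part of liver transcripts in the Cyp4f values was not tested.

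**Figure D4:**
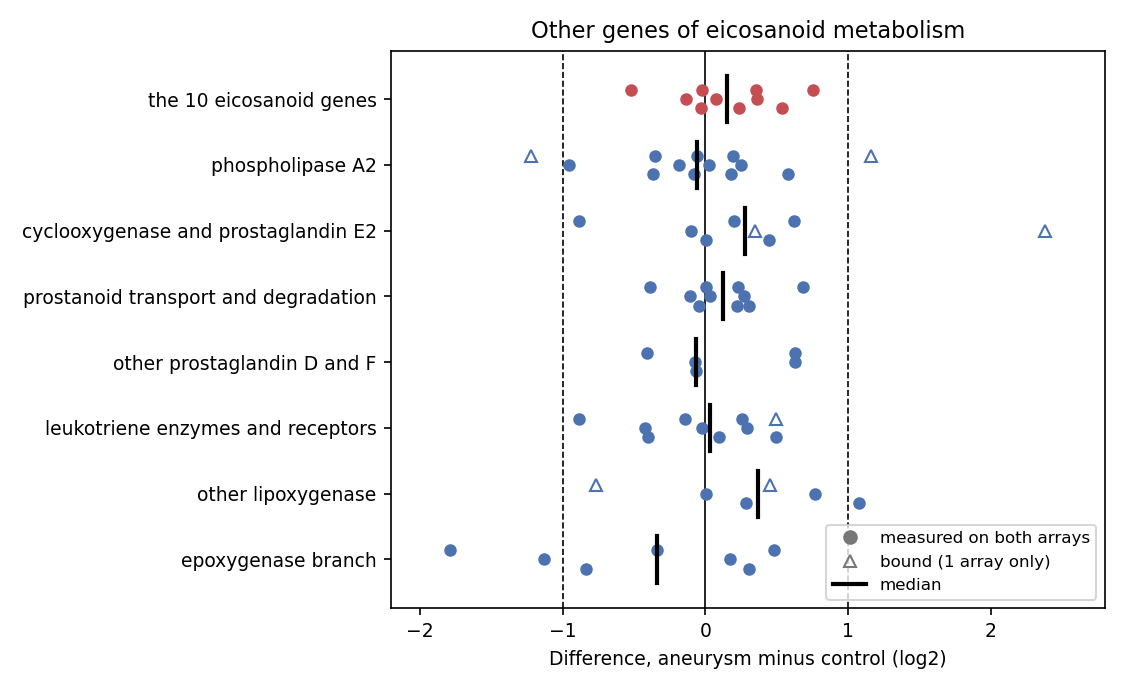
Difference (log2, aneurysm minus control) of the 10 genes (red) and of 59 other genes of eicosanoid metabolism (blue) in 7 lists, with each list's median as a bar; triangles are bounds for genes detected on 1 array only. Most points lie within the dashed 2-fold lines, with Ptger2, Pla2g2f and Cmklr1 beyond them on the right and Cyp4f1, Cyp4f4 and Pla2g12b on the left. With spike-in scaling all medians but that of the epoxygenase list are above 0.2, against a median of 0.30 for all genes.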

How the data were processed

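Gene expression was measured on 2 arrays, 1 per group, grouped by title. The authors deposited scanner output of Feature Extraction 10.10.1.1 (build field rn4), per the file headers. The values used are its deposited processed signal, a spot intensity on a linear scale, with 0 or 1 flags. Its background settings were not given in the sources used here. Both arrays shared 1 slide and 1 scan, per the file headers.

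Each signal was put on the log2 scale and the 75th percentile of its array, from 58717 spots other than controls, subtracted. Outlier spots (484 and 573) were left out and spots of a probe averaged. By the flags of each spot, 74.7% and 76.4% of spots other than controls were well above background. Accessions were matched without version to RefSeq genes of GRCr8, for names: 18006 of 30367 probes matched 1 gene. A gene's brightest probe stood for it. Genes well above background on 1 array only got a bound, taking for the other array the lowest signal well above background, or the gene's own if higher. Where the gene's own dim signal was taken, the bound is not a strict limit. Pooled spot SDs came from 20 signal bins per array. The code was tested on simulated arrays.

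The alternatives were normexp (limma 3.58.1, offset 50, on the deposited background-subtracted signal), quantile, median, loess (span 0.4) and spike-in scaling (7 probes), a percentile from probes detected on both arrays, outliers kept, the mean over probes, 2 other filters on dim probes and a 1.5-fold threshold. Centring on smooth muscle genes was added after the data had been seen. Statistics used python 3.11.15.

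The naming rule took all 10 members, then each pathway gene at least 2-fold different or, in a list without one, its 2 largest measured differences, up to 3 bright markers of a list, and any marker at least 2-fold different beside a member. Members and lists were chosen with earlier results of these data known. Promoters are RefSeq windows of GRCr8.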

Additional observations from a re-analysis of the deposited data

How the results depend on the processing

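Pla2g4a, Tbxas1, Ptgis and Alox5ap were higher in the aneurysm library under all 11 alternatives that gave a value. Keeping outliers, the mean over probes and the 2 other filters on dim probes could not change any of the 10 genes. Each has 1 probe without outlier spots, well above background on both arrays. Those settings are therefore no check on the signs, here or in the counts out of 11 below. Over all 11, Pla2g4a ranged from 0.22 to 1.06, Tbxas1 from 0.36 to 0.85, Ptgis from 0.18 to 0.67 and Alox5ap from 0.14 to 0.66. Ptgds kept its sign under 10 of 11, Hpgds and Alox5 under 10, Ptgir and Ptgfr under 9 and Tbxa2r under 8. The median of the 10 genes, 0.16, was -0.029 with normexp, 0.46 with spike-in scaling and -0.028 when centred on the smooth muscle list. That of all genes, 0.001, moved to -0.087, 0.30 and -0.18 under the same settings, so it stayed below the median of the 10 genes. The count past 2-fold, 0, was 1 with spike-in scaling, and 1 at a threshold of 1.5-fold. Unscaled, 9 of the 10 genes had the higher signal in the aneurysm library, against 6 after scaling. The median of the other pathway genes, 0.03, was 0.34 with spike-in scaling and -0.15 when centred on the smooth muscle list. Spike-in scaling moved the median of all genes by 0.30, with 82.2% of genes then higher against 50.2%, so a value under it should be read against that shift. All genes at least 2-fold higher and lower numbered 105 and 465, and 14 and 191 with normexp, 311 and 332 with spike-in scaling, 165 and 406 with quantile normalization, 157 and 413 with loess, 183 and 756 with no filter on dim probes, 51 and 237 from probes detected on both arrays, and 49 and 632 when centred on the smooth muscle list. No paired analysis was possible because each group has 1 sample. For the same reason no sample could be left out. The dimmest genes, Pla2g4a and Hpgds, with control signals near 50, are limited by their signal over background.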
